A study of Mus musculus with 16 samples.

Results

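IL-6 family cytokines and IL-1 signal to hepatocytes through cell surface receptors whose mRNAs, together with those of the transcription factors and the inhibitor downstream of them, were followed here in mouse liver. The genes were chosen by symbol: 4 receptor chains of the IL-6 family (Il6ra, Il6st, Osmr, Lifr), the transducer Stat3, the inhibitor Socs3, the factors Cebpb and Cebpd, the IL-1 receptor Il1r1 and the NF-kB cofactor Nfkbiz. All 10 were found among the 17003 genes of the table, and all 10 passed the filter on low values, a mean of 0.1 FPKM or more, as did 12770 genes in total. FPKM is the number of fragments of a gene scaled by transcript length and by the fragments mapped in the library. Livers came from 16 fed male mice 8 weeks of age on normal chow, 1 library per mouse, 8 Fgl1 WT and 8 Fgl1 LKO. Both were floxed at both Fgl1 alleles, a EUCOMM allele whose cassette had been removed with Flp recombinase; Fgl1 LKO also carried Cre driven by the albumin promoter, which is active in hepatocytes, and Fgl1 WT were littermates without Cre. FGL1 is a protein that hepatocytes secrete.

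IL-6 binds IL-6 receptor alpha and then pairs of gp130, encoded by Il6st, whereas oncostatin M and LIF signal through gp130 with the receptors encoded by Osmr and Lifr. The kinases bound to gp130 phosphorylate STAT3, which induces acute-phase genes and SOCS3, an inhibitor that binds gp130 and shuts the signal down. IL-1 signals through MyD88 to NF-kB, and in liver both routes, with C/EBP beta and C/EBP delta, drive acute-phase proteins such as serum amyloid A.

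The targeted gene separated the genotypes. Fgl1 lay between 158 and 1331 FPKM in Fgl1 WT mice (median 312) and between 13.2 and 90.0 FPKM in Fgl1 LKO mice (median 50.3), with no overlap. Its log2 difference was -3.11 (SE 0.49) on the log2(FPKM + 1) scale used throughout, with an adjusted p of 0.0725 in limma, the lowest of all genes. Whether Fgl1 passed hung on the model. Its adjusted p in limma was 0.0372 with sums made equal and 0.0250 with a term for runs of mouse numbers. It was 0.0453 without the run that held Fgl1 WT mice only and 3.09e-09 with Saa1 as a covariate. Fgl1 did not pass with median ratios (0.123), robust empirical Bayes (0.215) or no filter on low values (0.223), nor without single mice (0.0523 to 0.200). Hepatocyte markers dominated the livers, with Alb at a mean of 41750 FPKM and the 5 hepatocyte markers summing to 44915 to 84132 FPKM per mouse. Neutrophil markers summed to 0.66 to 33.9 FPKM, with Ly6g above 0 in 2 of 16 mice. Summed FPKM per library ran from 673153 to 786188, and low values, which moved in steps of 1 fragment, gave relative depths of 0.956 to 1.02, so that depth differed little between libraries.

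The promoter window of Socs3 is shown because it held the only match to the STAT motif among the windows of these genes. Of the 2 Il1r1 windows, the first is shown because it held the only C/EBP match. The second (chr1:40305496-40305795, plus strand) held no match to any of the searched motifs. The Stat3 window is shown because the level of Stat3 followed those of Socs3 and Il1r1 over mice. The windows are 300 bases around a gene start, from RefSeq (GRCm38.p6), each found once on its chromosome in GRCm39, the build the reads were aligned to under its name mm39. The Socs3 window is chr11:117860143-117860442, minus strand, the first Il1r1 window chr1:40263990-40264289, plus strand, and the Stat3 window chr11:100830317-100830616, minus strand. By the GENCODE annotation of GRCm39 the Socs3 window lies inside the gene (chr11:117856905-117860898), and the first Il1r1 window and the Stat3 window span the gene's first base (Il1r1 chr1:40264174-40356417, Stat3 chr11:100775924-100830450). Sequences run 5′ to 3′ in the direction of the gene, and capitals mark the motif.
Socs3: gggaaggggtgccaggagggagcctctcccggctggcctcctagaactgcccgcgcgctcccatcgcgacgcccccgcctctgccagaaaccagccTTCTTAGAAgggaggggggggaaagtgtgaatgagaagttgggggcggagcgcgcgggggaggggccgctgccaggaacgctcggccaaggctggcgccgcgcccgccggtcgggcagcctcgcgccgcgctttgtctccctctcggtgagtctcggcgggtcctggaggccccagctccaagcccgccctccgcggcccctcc
Il1r1: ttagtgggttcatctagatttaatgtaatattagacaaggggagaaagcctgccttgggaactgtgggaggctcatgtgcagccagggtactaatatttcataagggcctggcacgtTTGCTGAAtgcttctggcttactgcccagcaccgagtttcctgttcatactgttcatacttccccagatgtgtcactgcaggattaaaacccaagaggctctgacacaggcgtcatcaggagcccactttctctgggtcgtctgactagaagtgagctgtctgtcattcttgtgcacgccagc
Stat3: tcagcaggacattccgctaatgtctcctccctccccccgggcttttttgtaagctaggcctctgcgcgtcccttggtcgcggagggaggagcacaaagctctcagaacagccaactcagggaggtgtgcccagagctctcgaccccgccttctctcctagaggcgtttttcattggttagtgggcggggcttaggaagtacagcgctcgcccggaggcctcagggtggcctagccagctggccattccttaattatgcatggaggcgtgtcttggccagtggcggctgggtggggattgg
The searched letters, on both strands, were TTCNNNGAA (STAT), TTGCNNAA (C/EBP) and GGNNTTTCC (NF-kB). The table held 10 windows for 8 of the 10 genes, and Cebpd and Nfkbiz were not among them. The STAT letters were in 1 of these 10 windows and in 8.3% of all 32851 windows, the C/EBP letters in 1 and in 10.8%, and the NF-kB letters in 0 and in 5.82%. A match is a run of letters and was not tested as a binding site.

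No receptor, factor or inhibitor of the group passed the genotype test. Of all 12770 genes, 0 passed an adjusted p of 0.05 (0%), and 895 had an unadjusted p under 0.05 (7.01%). Among the 10 genes, 0 passed and 1, Il6st, had an unadjusted p under 0.05. Differences were above 0 for 8 of the 10 and below 0 for Nfkbiz and Lifr, with a median of 0.27 beside 0.01 over all genes tested. The 10 genes varied together over mice, with r above 0 in 44 of 45 pairs once genotype means were removed. Their directions are therefore not separate observations, and the count was not tested. The exact rank-sum test with adjustment over all genes also called 0 of the 10.

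Il6st, the signalling chain shared by the whole family, was the gene of the group with the lowest p. It ranged from 15.2 to 27.9 FPKM (median 21.5) in Fgl1 WT livers and from 20.3 to 54.2 FPKM (median 31.8) in Fgl1 LKO livers. In Fgl1 LKO, 6 of 8 mice lay above the highest Fgl1 WT mouse, and replicates 4 and 6 lay within the Fgl1 WT range. The log2 difference was 0.49 (SE 0.16), with an unadjusted p of 0.00749 and an adjusted p of 0.696 in limma, and an exact two-sided permutation test over the mice gave p = 0.0129. It ranked 125 of 12770 genes by p. The difference lay between 0.38 and 0.58 under every alternative that was run, and its adjusted p between 0.395 and 0.952.

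Il6ra, the chain that binds IL-6 itself, was at 6.84 to 15.1 FPKM (median 12.7) in Fgl1 WT and 8.52 to 23.8 FPKM (median 15.0) in Fgl1 LKO. In Fgl1 LKO, 4 of 8 mice exceeded the highest Fgl1 WT mouse, and the others overlapped (log2 difference 0.37, SE 0.20, adjusted p = 0.707). Lifr was the most abundant of the group per length, at a mean of 84.1 FPKM. It spread over 57.9 to 140 FPKM (median 75.1) in Fgl1 WT and 42.8 to 123 FPKM (median 88.8) in Fgl1 LKO, where replicates 3, 4 and 6 lay below every Fgl1 WT mouse. Its difference was -0.19 (SE 0.25, adjusted p = 0.866), opposite in direction to the medians, -0.43 with the run term, and -0.08 without Fgl1 LKO replicate 4 or 6, -0.09 without Fgl1 LKO replicate 3 or Fgl1 WT replicate 4 or 6, and -0.29 without Fgl1 LKO replicate 1. Osmr was the least abundant, at 0.36 to 0.96 FPKM (median 0.74) in Fgl1 WT and 0.53 to 2.91 FPKM (median 0.86) in Fgl1 LKO. The value of 2.91 belonged to replicate 8, and the next highest Fgl1 LKO mouse was at 1.02. The difference of 0.26 (SE 0.15, adjusted p = 0.713) was 0.11 without that mouse and 0.48 and 0.53 with pseudocounts of 0.1 and 0.01, since adding 1 shrinks differences at levels under 1 FPKM.

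Stat3, the factor that carries the signal to the nucleus, was at 26.2 to 50.5 FPKM (median 32.1) in Fgl1 WT and 24.6 to 66.8 FPKM (median 41.9) in Fgl1 LKO. The ranges overlapped at both ends, with 2 Fgl1 LKO mice above and 1 below all Fgl1 WT mice (log2 difference 0.28, SE 0.17, adjusted p = 0.722). Socs3, a direct target of STAT3, varied 13.2-fold between the lowest and the highest mouse. It ran from 1.12 to 13.6 FPKM (median 4.68) in Fgl1 WT and from 1.40 to 14.8 FPKM (median 3.92) in Fgl1 LKO, and the genotypes covered nearly the same range. Its difference of 0.09 (SE 0.40, adjusted p = 0.967) changed sign when single mice were left out, from -0.13 without Fgl1 LKO replicate 8 to 0.30 without Fgl1 WT replicate 5.

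Cebpb and Cebpd encode C/EBP beta and C/EBP delta, which bind acute-phase promoters. Cebpb was at 35.3 to 101 FPKM (median 52.9) in Fgl1 WT and 37.8 to 113 FPKM (median 67.5) in Fgl1 LKO (log2 difference 0.28, SE 0.23, adjusted p = 0.785). Cebpd was far lower, at 1.00 to 4.37 FPKM (median 2.12) and 1.53 to 4.27 FPKM (median 2.72) (0.18, SE 0.20, adjusted p = 0.836). For both genes the highest Fgl1 WT mouse was replicate 5 and the lowest replicate 8, and the highest Fgl1 LKO mouse was replicate 1 and the lowest replicate 6.

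Il1r1, the signalling receptor for IL-1, had the widest spread of the group, 17.4-fold between mice. It was at 8.42 to 34.9 FPKM (median 11.1) in Fgl1 WT and 4.99 to 87.0 FPKM (median 16.8) in Fgl1 LKO. Replicate 5 stood apart in Fgl1 WT, and in Fgl1 LKO replicates 8 and 7 were highest and replicate 4 was lowest of all mice. The difference was 0.53 (SE 0.43, adjusted p = 0.785) and 0.22 without Fgl1 LKO replicate 8. Nfkbiz, whose product works with NF-kB at secondary response genes, was at 1.73 to 6.57 FPKM (median 2.30) in Fgl1 WT and 1.36 to 3.53 FPKM (median 2.65) in Fgl1 LKO (-0.02, SE 0.20, adjusted p = 0.981). Its highest values, 6.57 and 4.34 FPKM, were in Fgl1 WT replicates 5 and 7.

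**Figure D1:**
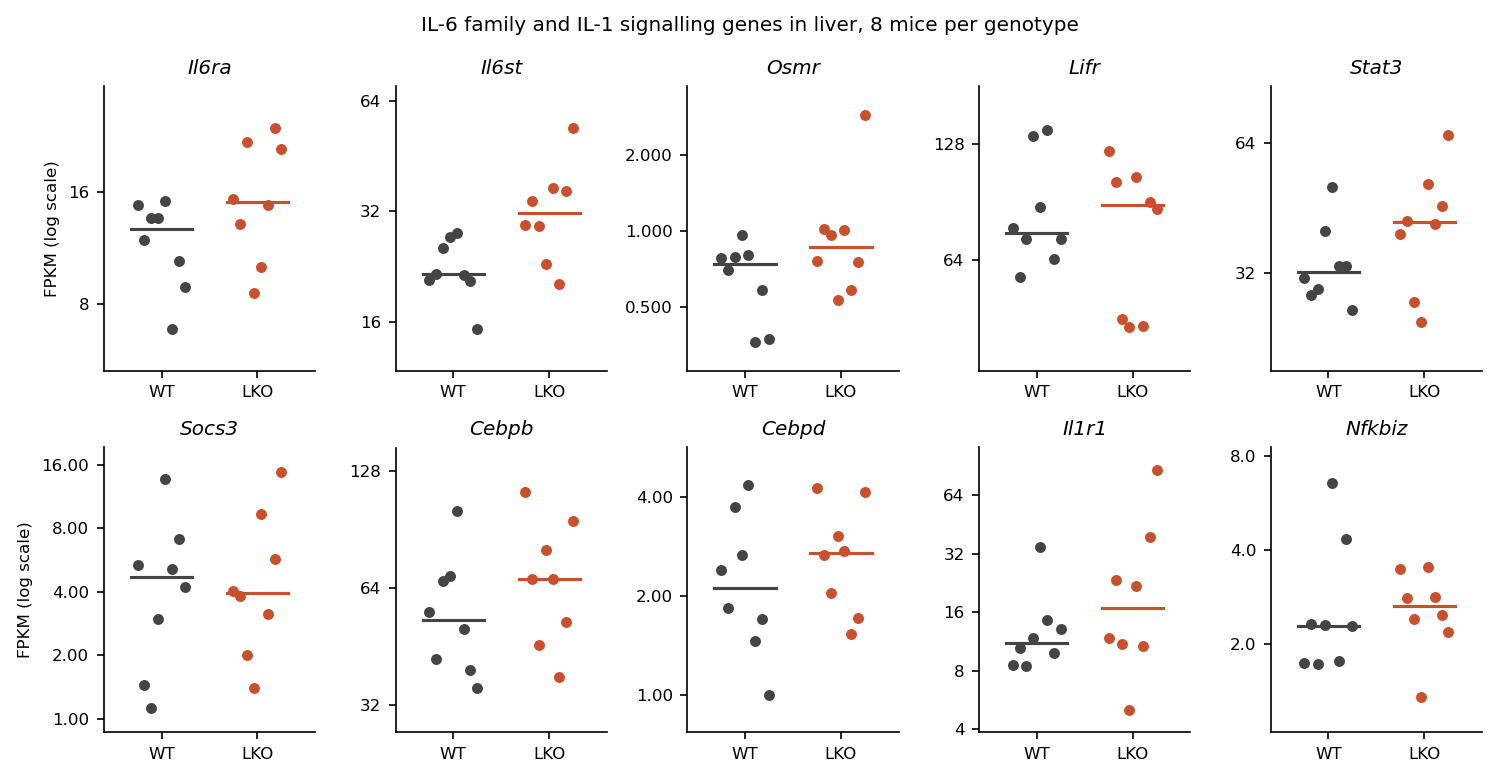
FPKM of the 10 genes on a log axis, 1 point per mouse in replicate order, with lines at the medians of the 8 Fgl1 WT and 8 Fgl1 LKO mice. Ranges overlap in every panel, and for Il6st 6 of 8 Fgl1 LKO points lie above all Fgl1 WT points.

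Mice of the same genotype differed widely. The SD of log2(FPKM + 1) within genotypes was 0.96 for Il1r1 and 0.90 for Socs3, at the 99.5 and 99.4 percentiles of all kept genes, and 0.33 for Osmr, the smallest of the group, at the 89.6 percentile. Adding 1 shrinks the SD of low genes such as Osmr, and of other low genes among those kept. As highest over lowest mouse, Osmr varied 8.08-fold and Stat3, the least of the 10, 2.71-fold. Saa1, a serum amyloid A gene that is an output of these pathways, ran from 63.8 to 16268 FPKM in Fgl1 WT and from 68.4 to 7669 FPKM in Fgl1 LKO. On the log2 scale the largest gap between neighbouring mice was 1.89 in a range from 6.02 to 13.99. It lay between 7 mice (4 Fgl1 WT and 3 Fgl1 LKO, 6.02 to 7.98) and 9 mice (4 Fgl1 WT and 5 Fgl1 LKO, 9.88 to 13.99), and whether these are separate clusters was not tested. Values within each side are therefore given beside those over all mice, an alternative chosen after seeing the data. Saa1 and Saa2 are close copies whose reads may be split, so the level of either is uncertain.

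Nfkbiz was the only gene of the group that passed the test for a relation to Saa1 with genotype as a term. Over 12769 genes, 79 rose with Saa1 (0.619%), 132 fell (1.03%), and 211 passed in either direction (1.65%). The balance of the 2 directions hung on the scaling: 98 rose and 46 fell with median ratios, 72 and 61 with quantile normalization, and 73 and 398 with sums made equal. Of the 10 genes, 1 passed as higher and 0 as lower, and 3 had an unadjusted p under 0.05, as did 2329 of all genes (18.2%). The median slope was 0.03 for the 10 and -0.01 for all genes.

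The slope of Nfkbiz was 0.11 log2 units per log2 unit of Saa1 (SE 0.03, adjusted p = 0.0407). Over 16 mice Pearson's r was 0.727 (permutation p = 0.00075) and Spearman's rho 0.724 (permutation p = 0.00209), among 10 such relations. Pearson's r was 0.821 in the 8 Fgl1 WT mice (exact permutation p = 0.0113), 0.565 in the 8 Fgl1 LKO mice (exact permutation p = 0.143) and 0.673 without the 2 mice farthest from the Saa1 median, and rho was 0.738 (exact permutation p = 0.0458) and 0.595 (exact permutation p = 0.132) in the 2 genotypes. The pass was narrow. Its adjusted p was 0.0719, 0.0623, 0.0860, 0.0589, 0.157 and 0.0839 without Fgl1 WT replicates 1, 2, 3, 4, 5 and 7, and 0.0517, 0.0610 and 0.0776 without Fgl1 LKO replicates 1, 4 and 5. Mouse numbers were grouped here into 4 runs, which the labels neither mark nor call batches. Mouse 55 (Fgl1 LKO replicate 3) was placed with mice 48 to 50, although its number lies as far from 50 as from 60. Other placings were not run, so all values with run terms rest on this choice. The run of the lowest numbers held 3 Fgl1 WT mice and no Fgl1 LKO mouse, with Saa1 of 63.8 to 71.4 FPKM. The adjusted p was 0.0624 with no filter on low values, 0.241 without that run and 0.150 without the 2 mice farthest from the Saa1 median. With the run as a term the slope was 0.13 (SE 0.04) and the adjusted p 0.208, and with run means removed r was 0.729. Each run held 3 to 5 mice, too few for a value of its own. Within the 9 mice above the gap in Saa1 the slope was 0.25 (SE 0.06, adjusted p = 0.579 in limma), with r of 0.840 (exact permutation p = 0.00351) and rho of 0.833 (exact permutation p = 0.00827). Within the 7 mice below it the slope was -0.11 (SE 0.13, adjusted p = 1 in limma), with r of -0.238 (exact permutation p = 0.623) and rho of 0.071 (exact permutation p = 0.906). These 7 mice spanned log2 Saa1 of only 6.02 to 7.98, and 0 of all genes passed there. That fit therefore cannot decide whether the relation holds at low Saa1. The slope of Nfkbiz was above 0 under every other alternative.

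Socs3 had the steepest slope of the 10, 0.22 (SE 0.05), with an adjusted p of 0.0544 that missed the threshold. Pearson's r was 0.699 (permutation p = 0.00271) and Spearman's rho 0.591 (permutation p = 0.0174) over 16 mice. Within genotypes r was 0.804 in the 8 Fgl1 WT mice (exact permutation p = 0.0158) and 0.577 in the 8 Fgl1 LKO mice (exact permutation p = 0.135), and it was 0.733 without the 2 mice farthest from the Saa1 median and 0.573 with run means removed. Spearman's rho was 0.595 (exact permutation p = 0.132) in Fgl1 WT and 0.405 (exact permutation p = 0.327) in Fgl1 LKO. Within the 9 mice above the gap in Saa1 r was 0.523 (exact permutation p = 0.149) and rho 0.283 (exact permutation p = 0.463), and within the 7 below it r was 0.109 (exact permutation p = 0.83) and rho 0.036 (exact permutation p = 0.963), so that neither side passed 0.05 on its own. The adjusted p was 0.398 with the run term and 0.241 without the run of Fgl1 WT mice only, and 0.191 without Fgl1 WT replicate 5 and 0.139 without Fgl1 LKO replicate 3. It passed without Fgl1 WT replicate 1 (0.0357) or Fgl1 LKO replicates 2 (0.0464), 6 (0.0355), 7 (0.0243) or 8 (0.0490). The mouse with the highest Socs3, Fgl1 LKO replicate 8 at 14.8 FPKM, had Saa1 at 2890 FPKM, whereas Fgl1 WT replicate 7, with the highest Saa1, had Socs3 at 7.09 FPKM.

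Stat3 had a slope of 0.07 (SE 0.03, adjusted p = 0.192) and Il1r1 one of 0.13 (SE 0.07, adjusted p = 0.372). Pearson's r of Stat3 with Saa1 was 0.55 (permutation p = 0.028), Spearman's rho was 0.553 (permutation p = 0.0288), and r was 0.497 without the 2 mice farthest from the median. Within the 9 mice above the gap r was 0.343 (exact permutation p = 0.367) and rho 0.317 (exact permutation p = 0.41). Within the 7 below it r was 0.226 (exact permutation p = 0.64) and rho -0.071 (exact permutation p = 0.906). The receptor chains Il6st and Osmr had slopes of 0.01 (SE 0.03) and 0.00 (SE 0.03), and Cebpb and Cebpd slopes of 0.02 (SE 0.04) and 0.01 (SE 0.04). Lifr had one of 0.04 (SE 0.05), and Il6ra was the only gene with a negative slope, -0.05 (SE 0.04, adjusted p = 0.521). Below and above the gap in Saa1 slopes were -0.39 (SE 0.22) and 0.10 (SE 0.08) for Il6ra, 0.35 (SE 0.15) and 0.07 (SE 0.13) for Cebpb, 0.34 (SE 0.26) and -0.11 (SE 0.11) for Lifr, 0.11 (SE 0.17) and 0.14 (SE 0.10) for Cebpd, -0.09 (SE 0.08) and 0.07 (SE 0.09) for Osmr, 0.01 (SE 0.14) and 0.10 (SE 0.09) for Il6st, 0.00 (SE 0.46) and 0.10 (SE 0.21) for Il1r1, 0.15 (SE 0.18) and 0.11 (SE 0.07) for Stat3, and 0.08 (SE 0.38) and 0.26 (SE 0.14) for Socs3. On either side 0 of the 10 passed, as did 0 of all genes below the gap and 4 above it. The slope itself was compared between genotypes by an interaction term, and 0 of the 10 and 0 of all 12769 genes (0%) passed, the lowest adjusted p of the 10 being 0.750 for Stat3. In that fit 0 of the 10 and 1011 of all genes (7.92%) had an unadjusted p under 0.05.

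**Figure D2:**
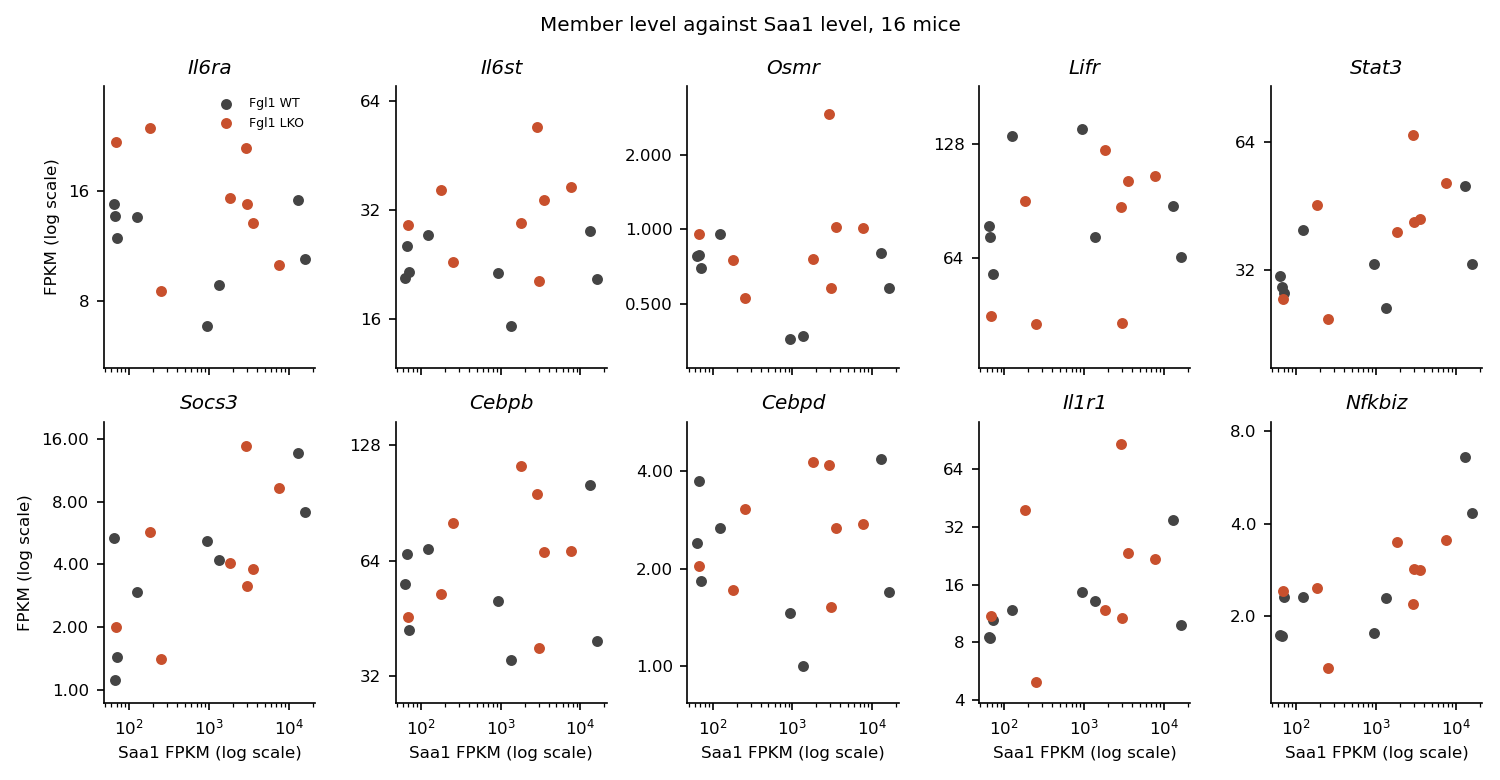
FPKM of each of the 10 genes against Saa1 FPKM, both on log axes, 1 point per mouse, 8 Fgl1 WT and 8 Fgl1 LKO. Over all mice r is 0.699 for Socs3 and 0.727 for Nfkbiz, and below the gap in Saa1 it is 0.109 and -0.238. Il6st, Osmr, Cebpb, Cebpd and Lifr have slopes over all mice within their SE of 0.

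**Figure D3:**
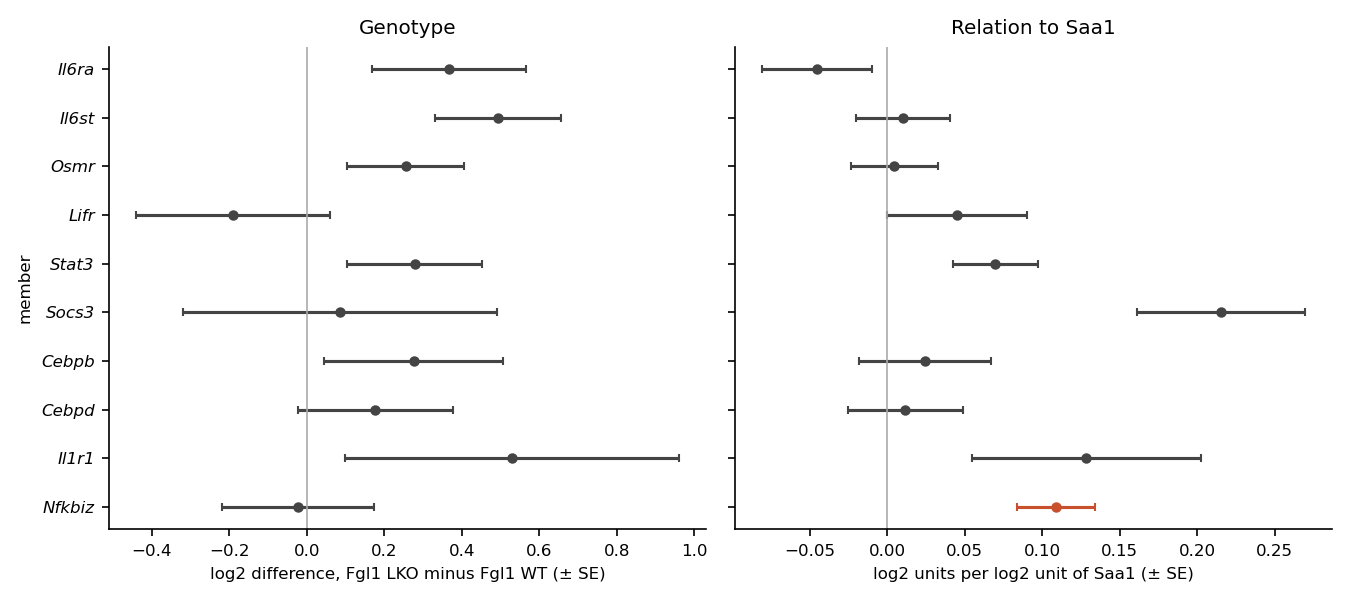
Genotype difference (left, log2 Fgl1 LKO minus Fgl1 WT) and slope on Saa1 (right, log2 per log2 unit) of the 10 genes, with bars of 1 SE from limma over 16 mice. The coloured point, Nfkbiz at 0.11, is the only estimate with an adjusted p under 0.05.

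Markers of hepatocytes and of other cells also passed against Saa1, where 0.619% of all genes rose and 1.03% fell. All 3 neutrophil genes that could be tested rose, S100a8 at a slope of 0.33 (SE 0.08, adjusted p = 0.0491), S100a9 at 0.30 (SE 0.07, adjusted p = 0.0338) and Retnlg at 0.12 (SE 0.03, adjusted p = 0.0392). S100a8 was the most abundant of the 6, at a mean of 5.68 FPKM, and Ly6g, Camp and Ngp were at or near 0. The 6 neutrophil genes summed to 33.9 FPKM in Fgl1 WT replicate 5 and 23.9 in replicate 7, the mice with the highest Nfkbiz, to 26.9 in Fgl1 LKO replicate 1, where Nfkbiz was 3.48 FPKM, and to 20.6 in Fgl1 WT replicate 4, where Saa1 was 124 FPKM and Nfkbiz 2.31. Of 6 sinusoidal endothelial markers, 2 fell, Kdr at -0.14 (SE 0.03, adjusted p = 0.0201) and Stab2 at -0.10 (SE 0.02, adjusted p = 0.0493), and their sum, led by Clec4g, ran from 28.1 FPKM in Fgl1 LKO replicate 5 to 115 in Fgl1 LKO replicate 3. Of 5 hepatocyte markers, 2 fell, Ttr at -0.07 (SE 0.01) and Cps1 at -0.06 (SE 0.01). None of these 7 markers passed with the run term or on either side of the gap in Saa1. With each of the 16 mice left out in turn, Kdr, Ttr and Cps1 passed 13 times, S100a9 and Retnlg 8, S100a8 4 and Stab2 3. With median ratios Stab2, Ttr, Cps1 and S100a8 did not pass (adjusted p of 0.0879, 0.0852, 0.116 and 0.0533), with no filter on low values only Kdr and Cps1 passed, and with Lcn2 as the measure only Kdr and Ttr. Of 37 alternatives Kdr passed in 27, Ttr in 24, Cps1 in 22, S100a9 in 19, Retnlg in 16, S100a8 in 10 and Stab2 in 9. Kupffer cell (8 genes), stellate cell (6), cholangiocyte (4), lymphocyte (3 tested) and erythroid (3) lists had 0 genes past the threshold in either fit, and no marker list had a gene past the threshold by genotype. The 8 Kupffer cell markers, led by Cd5l, had a median genotype difference of 0.25 and summed to 80.5 to 166 FPKM in Fgl1 WT and 108 to 210 FPKM in Fgl1 LKO. In bulk liver fewer cells of a type and less RNA per cell cannot be told apart, and the part of these cells in the values of Nfkbiz, Socs3 and Il6st was not tested.

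After each genotype's mean was removed, 44 of the 45 pairs of the 10 genes (97.8%) had a Pearson r above 0 over mice, with a median of 0.446. Over all pairs of the 12770 kept genes the share was 56.8% and the median 0.06. Both are a description over the same 16 livers, and genes of a like spread were not compared. The highest was 0.934 for Cebpb with Cebpd, each being the gene most like the other among all kept genes. Stat3 with Il1r1 (0.845), Il6st with Osmr (0.837) and Stat3 with Socs3 (0.814) followed. Il6ra had r from -0.031 with Lifr and 0.119 with Cebpb to 0.471 with Il6st and 0.515 with Osmr, and Nfkbiz from 0.055 with Osmr and 0.163 with Lifr to 0.53 with Stat3 and 0.582 with Socs3.

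**Figure D4:**
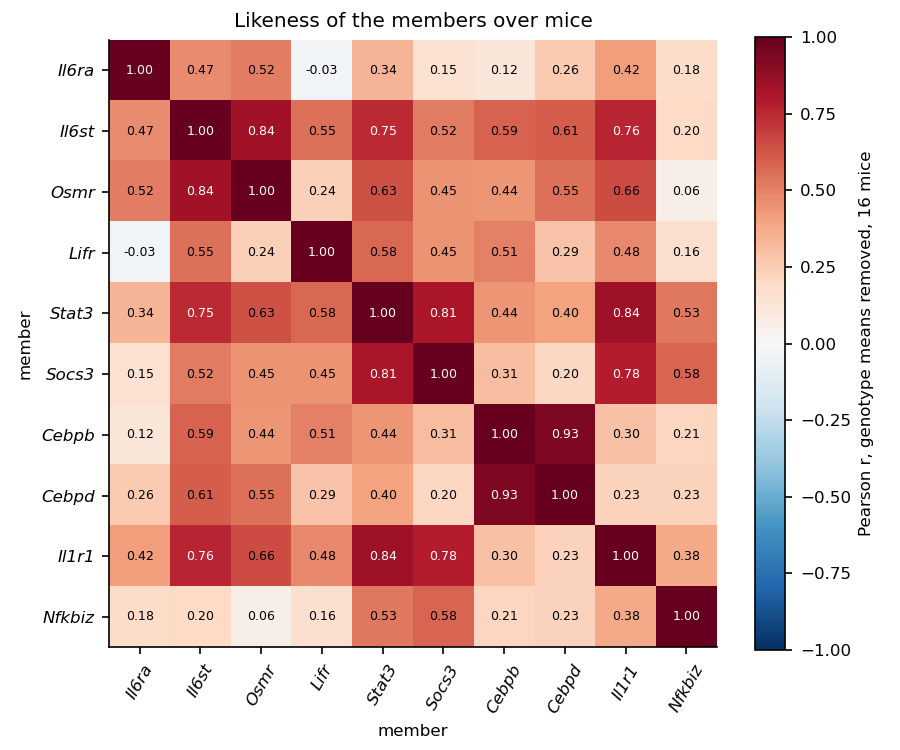
Pearson r between the 10 genes over 16 mice after removal of each genotype's mean of log2(FPKM + 1), from -1 (blue) to 1 (red). Cebpb and Cebpd form the darkest pair (0.934), and the rows of Il6ra and Nfkbiz are the palest.

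Among all kept genes, Stat3 was closest to the fibrinogen chains Fga (0.945) and Fgg (0.92) and to Dtx3l (0.916). Socs3 was closest to Slc37a1 (0.934), Pim2 (0.912), a kinase gene, and Cldn14 (0.91). Nfkbiz was closest to Saa3 (0.923), the chemokine gene Cxcl1 (0.893) and Apol10b (0.89). Il6ra was closest to Fkbp5 (0.821), a glucocorticoid-induced gene, and then to Matn2 (0.8) and Numbl (0.799). Il6st was closest to Rbm12 (0.935), to Hnf4a (0.92), a master factor of hepatocytes, and to Plek (0.902). Il1r1 was closest to Plscr1 (0.918), H6pd (0.91) and Pik3ap1 (0.908). After each other, Cebpb was closest to Shb (0.833) and Klk1 (0.811), and Cebpd to Klk1 (0.857) and Tnfrsf1b (0.837). Osmr was closest to Tox2 (0.936), Tor1aip1 (0.933) and Slc10a6 (0.893), all highest in Fgl1 LKO replicate 8, and Lifr to Cyp2c70 (0.939), Cmtm6 (0.938) and Adgrf1 (0.919).

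Among the ligands, mRNA of Il6, Il11, Osm, Lif and Il27 was scarce. Il6 was above 0 in 7 of 16 mice and at most 0.14 FPKM, Il11 in 5 and at most 0.07, Osm in 4 and at most 0.07, and Lif in 12 and at most 0.06. Il27 reached 0.20 FPKM. Only Ctf1 (mean 2.08 FPKM), Cntf (0.731), Ebi3 (0.568) and Clcf1 (0.496) passed the filter, and 0 of these 4 passed either test. On the IL-1 side Il1b was at 0.69 to 5.72 FPKM, highest in Fgl1 LKO replicate 8, and Il1a at 0.84 to 2.11 FPKM. The antagonists Il1rn (mean 0.829 FPKM) and Il18bp (8.98), Il18 (8.30) and Il33 (0.505) were likewise without a call, so that 0 of 6 passed in either fit. Il1rn had a Saa1 slope of 0.09 (SE 0.02, adjusted p = 0.0728).

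Of 5 related receptors that were kept, Ghr was the most abundant (188 FPKM), and 1, the leptin receptor gene Lepr, fell with Saa1 (-0.09, SE 0.02, adjusted p = 0.0365). Of 11 JAK and STAT genes other than Stat3, 1, Jak3, rose with Saa1 (0.09, SE 0.02, adjusted p = 0.0493), and Jak1 was the most abundant of the 11 at 22.7 FPKM. Over all genes 0.619% rose and 1.03% fell. With each mouse left out in turn Lepr passed 9 times of 16 and Jak3 2, and neither passed with the run term (adjusted p of 0.394 and 0.296) or on either side of the gap; with sums made equal Jak3 had an adjusted p of 0.0526. With Saa2, Orm2, Lcn2 or the rank of Saa1 as the measure, adjusted p was 0.0515, 0.0676, 0.105 and 0.0806 for Lepr and 0.0564, 0.0791, 0.102 and 0.0877 for Jak3, and with no filter on low values 0.0559 and 0.0732, so neither call held there. The 14 inhibitors had 0 calls. Socs2, the most abundant of them at 9.13 FPKM, ran from 1.44 to 29.9 FPKM. Il1rap, the partner of Il1r1, was at 55.8 to 85.8 FPKM, above Il1r1 in all but Fgl1 LKO replicate 8, and it and Sigirr, the 2 kept of 7 other IL-1 receptor genes, had no call. The 27 adaptor and NF-kB genes, led by Chuk (30.4 FPKM), the 8 other liver factors, led by Hnf4a (178 FPKM), the 12 immediate early genes, led by Zfp36 (52.6 FPKM), and the 7 glucocorticoid-responsive genes, led by Tat (735 FPKM), had 0 calls in either fit.

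Of 27 acute-phase genes tested against Saa1, itself an acute-phase gene, 19 rose and 0 fell, beside 0.619% and 1.03% of all genes, with a median slope of 0.23 beside -0.01. Saa2 had a slope of 1.15 (SE 0.03), Lcn2 0.83 (SE 0.07), Orm2 0.78 (SE 0.07) and Saa3 0.61 (SE 0.08), with adjusted p of 4.56e-13, 6.07e-06, 7.39e-06 and 0.000435, and Hpx, the most abundant at 5236 FPKM, 0.26 (SE 0.03). Of the 19, 12 to 19 still passed without single mice, the fewest without Fgl1 WT replicate 5, 9 with the run term, and 0 below and 3 above the gap in Saa1. By genotype 0 of the 28 passed.

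**Figure D5:**
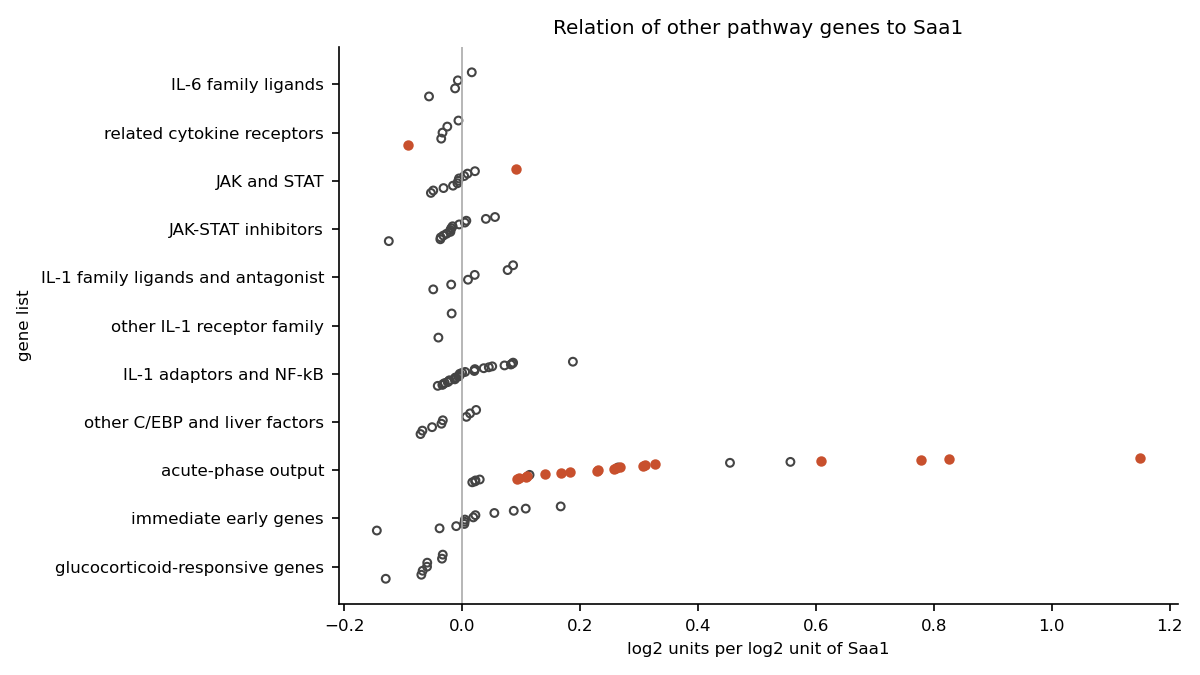
Slope on Saa1 (log2 per log2 unit) of each kept gene of the other pathway lists, 1 point per gene, filled where the adjusted p was under 0.05. Filled points are the 19 acute-phase genes, Lepr and Jak3.

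A single liver set several of the extremes. Fgl1 LKO replicate 8 had the highest Stat3 (66.8 FPKM), Socs3 (14.8), Il6st (54.2), Il1r1 (87.0) and Osmr (2.91) of all mice, while its Nfkbiz was 2.20 FPKM and its Saa1 2890 FPKM. Fgl1 WT replicate 5 was the highest Fgl1 WT mouse for Stat3, Socs3, Il6ra, Il6st, Il1r1, Cebpb, Cebpd and Nfkbiz, with Saa1 at 13092 FPKM. Fgl1 WT replicate 7 had the highest Saa1, 16268 FPKM, with Il1r1 at 9.80 and Stat3 at 33.2 FPKM, near the middle of its genotype. Without Fgl1 LKO replicate 8, 0 of the 10 passed by genotype and 2 by Saa1.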

How the data were processed

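Liver polyA RNA was extracted with phenol chloroform and sequenced from stranded DNBSEQ libraries, 1 per mouse. The submitters' processing notes name HISAT, Bowtie2 and mm39, with no versions. The labels and a published figure legend count 8 mice of each genotype, the published methods 7, and all 8 were used. The authors deposited FPKM for 17003 genes, with decimal commas, and used Dr. Tom for their own comparisons. Here FPKM was taken as log2(FPKM + 1) for the 12770 genes with a mean of at least 0.1. limma 3.58.1 in R 4.3.3 (lmFit, eBayes with trend) tested genotype, the slope on log2(Saa1 FPKM + 1) with genotype as a term, and their interaction, two-sided, with Benjamini-Hochberg adjustment over all genes and a threshold of 0.05. Exact permutation tests of genotype used all 12870 assignments of the mice (smallest p 0.000155), correlations over 7, 8 or 9 mice all 5040, 40320 or 362880 orders, and those over 16 mice 100000 permutations. The fits were tested on simulated data. Members and lists were chosen with earlier results of these data known. Named genes were the 10 members, Fgl1, Saa1, the most abundant gene of each pathway list and up to 4 past the threshold, the listed ligands (1 item of the lists is not reported here), and the 3 genes most like each member. Cell type markers and Sigirr named in the text were picked from their lists after their values were seen. Alternatives covered pseudocounts, filters, scalings, run terms, other measures of the acute phase, and leaving out mice.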

Additional observations from a re-analysis of the deposited data

Results flagged for a closer look

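In 134 sets of 8 mice (67 named genes in each genotype), the highest or lowest mouse stood far from the rest in 13. Chance sets apart about 1 in 20 where values are normal and sets independent. Several named genes were chosen for their likeness over these mice and some sit near 0, so that rate cannot judge the 13. Fgl1 LKO replicate 8 gave 7 of them: it was far above the other 7 mice in Osmr (2.91 FPKM), Il18bp (14.6), Il33 (1.8), Tox2 (1.18), Tor1aip1 (18.4) and Slc10a6 (1.54), and far below them in Il18 (4.39). Fgl1 WT replicate 5 gave 4, in Il1r1 (34.9), Plscr1 (15.0), Pik3ap1 (24.5) and Apol10b (1.09). Fgl1 WT replicate 7 gave 2, in Zfp36 (106) and Osm (0.07), the latter near 0. Tox2, Tor1aip1, Slc10a6, Plscr1, Pik3ap1 and Apol10b were named for their likeness to Osmr, Il1r1 or Nfkbiz over these same mice, so their flags are not independent of those genes.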

How the results depend on the processing

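The count of 0 of the 10 genes by genotype was kept under every alternative with adjusted p-values, and with an unadjusted exact permutation p under 0.05 it was 1, Il6st. Over all genes the count was 1, Fgl1, in place of 0 at an adjusted p under 0.1, with rescaling to an equal sum, the run term, without the run of Fgl1 WT mice only, with the Saa1 covariate and with the replicate block. For the relation to Saa1, the count among the 10 was 1; it was 2 at an adjusted p under 0.1, for genes of at least 1 FPKM, with equal sums and with no genotype term, and 0 on either side of the largest gap in Saa1 (chosen after seeing the data), with no filter, with the run term, without the run of Fgl1 WT mice only, without the 2 mice farthest from the Saa1 median, with Fgl1 WT or Fgl1 LKO alone and with the replicate block, and 0 to 2 when single mice were left out. Over all genes it was 211, and 594 at 0.1, 140 with no filter, 133 with quantile normalization, 471 with equal sums, 20 with the run term, 25 without that run, 119 with Lcn2, 104 with the rank of Saa1, 51 without the 2 farthest mice, 101 in Fgl1 WT, 5 in Fgl1 LKO, 0 below and 4 above that gap and 45 to 463 without single mice. Fewer mice enter several of these fits; otherwise the cause was not tested. Higher against lower calls were 79 and 132 as deposited, 98 and 46 with median ratios, 72 and 61 with quantiles and 73 and 398 with equal sums. For the slope difference, alternatives chosen after seeing the data gave 0 of the 10 throughout, and over all genes 0 to 1 without single mice.

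Replicate numbers did not pair the mice: same-number correlations were above 0.1 in 3 of 8 pairs, and 2 of 8 Fgl1 WT mice correlated best with their own number. With the replicate block 3 genes related to Saa1 in place of 211, and the slopes of Il6st and Il1r1 turned to -0.015 and -0.0645, and that of Socs3 fell to 0.0573 (adjusted p 0.93 in limma).

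Of the group's estimates whose sign turned, only the Saa1 slope of Nfkbiz had passed the threshold. It was -0.1069 below the gap. There the slopes of Il1r1 and Osmr were -0.0018 and -0.0937, and above the gap those of Il6ra and Lifr were 0.0964 and -0.1122. Outside the group, some slopes that had passed also turned below the gap, among them Jak3 (-0.1344, SE 0.1035) and Cp (-0.0655, SE 0.0876). Others kept their sign there, among them Saa2 (0.7959, SE 0.1788). The genotype difference of Socs3 was -0.169 with the run term, -0.3249 without the run of Fgl1 WT mice only, -0.1031 with Saa1 as a covariate and -0.1337 to 0.3009 without single mice, and that of Nfkbiz -0.0817 to 0.1285. The Saa1 slope of Osmr was -0.0004 and -0.0026 with pseudocounts of 0.1 and 0.01, -0.0209 in Fgl1 WT and -0.0094 to 0.0099 without single mice. That of Il6st was -0.0004 with equal sums, -0.0068 in Fgl1 WT and -0.0041 to 0.0196 without single mice; Cebpd had -0.011 and Lifr -0.0025 in Fgl1 WT, and without single mice Cebpb ran from -0.0162 to 0.0579 and Cebpd from -0.0243 to 0.0302. FPKM hold no counts, which limits low genes such as Osmr and the ligands.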
